A study of Arabidopsis thaliana with 6 samples.

Results

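These data describe the introns of many-intron genes, that is, of Arabidopsis thaliana genes with at least 15 introns, in the splicing mutant *brr2a*-2 and in Col plants. An intron was taken when its gene, on chromosome 1, 2, 4 or 5, had at least 15 rows in the intron count table and at least 50 gene counts, and when the intron itself had at least 10 counts over the 6 libraries. This gave 11504 introns of 873 genes, out of 117457 introns of 21499 genes in the table. A further 7330 introns of many-intron genes fell below the 10 counts and were left out. At that bound, the 542 introns with 9 counts had a median of 2.40 intron counts per 1000 gene counts, and the 499 introns with 10 counts a median of 2.36. The 22760 introns named after chromosome 3 genes were not used, because their names and their counts did not match.

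RNA-seq libraries had been made from 3 biological replicates each of Col, the wild type background, and of *brr2a*-2, which carries an amino acid exchange in the helicase BRR2a. The mutant came from a chemical (EMS) mutagenesis and was backcrossed to Col, so that other induced changes may remain beside the named one. All plants were 15 days old, grew in short days without further treatment and were harvested 1 h before dark. The labels name rosette leaves as the source, whereas the methods of the study speak of seedlings. CPM, here and below, are counts scaled to the library's effective total of gene counts. This effective total is the total of gene counts multiplied by the library's TMM scaling factor from edgeR. The 4 leaf markers summed to 6232 to 16927 CPM in Col and 11722 to 13582 in *brr2a*-2. The 4 root markers were also counted in every group (1107 to 3463 and 2135 to 3467), and flower markers stayed between 1.33 and 4.23. The part of these tissues in the results was not tested, and in such bulk samples fewer cells of a type and less RNA per cell cannot be told apart.

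BRR2a is the plant form of the RNA helicase BRR2, a subunit of the U5 snRNP that unwinds the U4/U6 snRNA duplex when the spliceosome is activated. Every intron has to pass this step, so a gene with many introns passes it many times for each mature mRNA. Reads that fall inside an intron come from unspliced precursors, from retained introns or from transcripts that overlap the intron, and here an intron's counts were divided by the counts of its gene in each library. This ratio is called the share of intron counts below, although it can exceed 1, since gene counts do not contain all intron reads. All introns of a gene share the same gene counts, hence they are not replicates of each other.

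The introns on which the results below turn are shown here, in capitals the first and last 2 bases, where splicing cuts. Sequences and positions are those of the TAIR10.1 reference, written in the direction of the transcript, and the number after the point in each name counts introns along the chromosome, as in the deposited table. The first group was higher in *brr2a*-2.
AT5G67030.3 (ABA1), chr5:26754199-26754280, minus strand: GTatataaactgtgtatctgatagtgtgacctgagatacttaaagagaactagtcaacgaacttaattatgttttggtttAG
AT1G10760.18 (SEX1), chr1:3585910-3585981, minus strand: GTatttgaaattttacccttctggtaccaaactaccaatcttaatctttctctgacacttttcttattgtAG
AT5G64860.12 (DPE1), chr5:25927933-25927992, minus strand: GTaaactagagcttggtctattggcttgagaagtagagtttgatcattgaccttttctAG
AT5G35170.6, chr5:13420873-13420975, plus strand: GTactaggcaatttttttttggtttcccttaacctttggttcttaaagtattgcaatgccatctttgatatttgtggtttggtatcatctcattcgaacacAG
AT2G37520.12, chr2:15747635-15747723, minus strand: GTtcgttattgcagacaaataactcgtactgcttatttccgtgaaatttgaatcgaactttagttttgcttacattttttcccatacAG
The second group holds the 3 introns that were lower in *brr2a*-2 relative to their gene counts.
AT1G04620.11 (HCAR), chr1:1284691-1284789, minus strand: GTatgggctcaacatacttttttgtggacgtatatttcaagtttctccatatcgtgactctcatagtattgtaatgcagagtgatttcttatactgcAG
AT5G51660.8 (CPSF160), chr5:20982933-20983040, plus strand: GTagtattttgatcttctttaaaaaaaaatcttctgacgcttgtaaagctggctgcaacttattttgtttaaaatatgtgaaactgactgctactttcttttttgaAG
AT4G19490.7 (VPS54), chr4:10619221-10619434, plus strand: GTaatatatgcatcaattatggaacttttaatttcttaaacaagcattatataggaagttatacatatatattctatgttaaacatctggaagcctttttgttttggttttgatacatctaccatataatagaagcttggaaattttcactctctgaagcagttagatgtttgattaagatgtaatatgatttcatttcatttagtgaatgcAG
A last sequence shows an intron of *NHX5* of the rare AT-AC type.
AT1G54370.11 (NHX5), chr1:20295164-20295244, minus strand: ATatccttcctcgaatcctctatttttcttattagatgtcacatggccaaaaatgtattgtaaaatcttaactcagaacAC

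The 873 host genes had 15 to 74 introns, with a median of 18, and contributed 1 to 59 introns each (median 13). The introns were 30 to 4293 bases long, with a median of 110 bases against 107 bases in genes with 1 to 14 introns, and had a median GC content of 33.5% against 33.0%. Each held 10 to 24590 counts over the 6 libraries, and the median was only 26, so that single introns are known far less precisely than their sum. The gene table held 18692830 to 29830638 counts per library. The introns of many-intron genes took 62999 to 117547 counts per Col library and 83576 to 115870 per *brr2a*-2 library, beside 752058 to 1376285 counts of their host genes. Replicates of a genotype differed by more than counting noise, with a chi-square of 1.60 to 2.64 per intron and degree of freedom.

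The share of intron counts was higher in *brr2a*-2. Summed over all 11504 introns, intron counts were 8.54%, 7.43% and 8.38% of the gene counts in Col and 11.7%, 10.9% and 11.0% in *brr2a*-2. Every *brr2a*-2 library lay above every Col library. The means were 8.12% ± 0.60 and 11.2% ± 0.46 (SD, n = 3 each), a 1.38-fold difference or 0.47 on the log2 scale (two-sided exact permutation test, p = 0.1, the smallest that 3 against 3 libraries allow). Leaving out each library in turn gave 0.41 to 0.51. Without the 10 introns with the most counts the difference was 0.49, so the sum did not rest on a few introns.

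To ask whether many introns per gene go with a larger change, these introns were set beside the 41741 introns of 10960 genes with 1 to 14 introns that met the same minimum counts. There the share was 6.98%, 5.34% and 5.84% in Col and 8.84%, 7.75% and 8.15% in *brr2a*-2, which is 0.45 on the log2 scale. The change differed by 0.01 between both groups of genes (exact permutation test of the difference, p = 0.9). Its sign depended on how introns were summed: with the median over introns in place of the sum it was -0.06 (exact p = 0.1), without the 10 introns with the most counts of each group -0.05 (p = 0.5), and against genes with 5 to 14 introns -0.05 (p = 0.4).

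**Figure D1:**
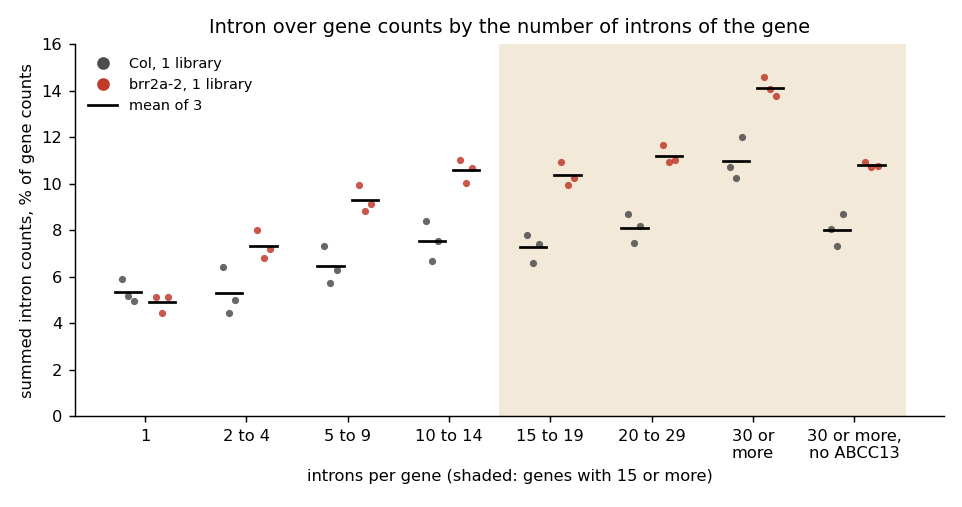
Summed intron counts in percent of gene counts (vertical axis) for genes grouped by their number of introns (horizontal axis), 1 point per library and a line at the mean of 3. *brr2a*-2 lies above Col from 2 introns upwards, by 0.37 to 0.53 on the log2 scale, and overlaps Col in genes with a single intron.

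Going through the number of introns, genes with 1 intron stood apart in the sum. Their share was 5.33% ± 0.496 in Col and 4.90% ± 0.385 in *brr2a*-2 (n = 3 each), the libraries overlapped and the difference was -0.12 (exact permutation test, p = 0.4). Gene by gene, 408 of these 1600 genes (25.5%) were higher in every *brr2a*-2 library and 14 (0.875%) lower, beside 37.4% and 0.676% of all 11833 genes. Their sum was not repeated without the introns with the most counts. For all first introns of genes with 1 to 14 introns, leaving out the 10 introns with the most counts moved the change from 0.23 to 0.46. In genes with 2 to 4, 5 to 9 and 10 to 14 introns the difference in the summed share was 0.49, 0.53 and 0.50, with no overlap of libraries. Many-intron genes continued at this height: 0.52 for the 525 genes with 15 to 19 introns (7.26% in Col, 10.4% in *brr2a*-2) and 0.47 for the 274 genes with 20 to 29 introns (8.11% and 11.2%). In the 74 genes with 30 or more introns the share was 11.0% and 14.1%, a difference of 0.37, and 0.43 without *ABCC13*, whose introns held more counts than the gene itself. On both sides of the bound that defined the set, genes with 14 introns gave 0.41 and genes with 15 introns 0.49. No trend with the number of introns was tested.

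Corrected for length, the introns of many-intron genes in the set had a lower median level of intron reads. Intron counts per kilobase were, in the median over the 11301 introns with a known position, 10.3%, 9.02% and 9.03% of the gene counts per kilobase of exon in Col and 14.4%, 13.6% and 13.7% in *brr2a*-2. Again the genotypes did not overlap. In genes with 1 to 14 introns the same level was 12.9% in Col and 19.9% in *brr2a*-2, above that of many-intron genes in both genotypes. The summed share stood the other way, with 8.12% in many-intron genes and 6.05% in the others in Col. That sum adds all introns of a gene over gene counts entered once, so it rises with the number of introns per gene. It took in 11504 introns of 873 many-intron genes, and 41741 introns of 10960 other genes. With gene counts entered once for each intron, the order was that of the median level. GT-AG introns in Col were then at 4.41 per 1000 gene counts in many-intron genes and 12.4 in the others. Both groups hold only introns with at least 10 counts, so the lowest level that can be seen depends on the counts of the gene. The part of this bound was not tested. The 90th percentile over the introns of many-intron genes was at 36.8% in Col and 50.8% in *brr2a*-2, still below the level of the exons.

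Introns of 1 gene differed widely from each other. In the 619 genes with at least 10 introns in the set, the intron with the highest share had 18.1 times that of the lowest in the median gene (quartiles 10.9 and 34.7), part of which is counting noise at such low counts. Across the 11504 introns, the shares in Col and in *brr2a*-2 had a Spearman rho of 0.82, given as a description, since introns of a gene share its counts. Introns high in Col were thus mostly high in *brr2a*-2 as well.

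Looking at single introns, 2245 (19.5%) had a higher share in every *brr2a*-2 library than in every Col library, and 202 (1.76%) a lower one. Among all 53245 introns with these minimum counts it was 21.8% and 1.45%, so these shares were near the background. For the remaining 9057 introns the libraries overlapped.

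Of the 11504 introns, 2221 in 590 genes had enough counts per library to be tested, and such a filter keeps mainly the introns with high counts. In edgeR's quasi-likelihood test with Benjamini-Hochberg adjustment over all introns, after the change of the gene was taken off and the libraries were scaled on the intron table, 0 introns were called higher and 0 lower at an adjusted p under 0.05 and a log2 change of at least 1. The background was 0.00724% higher and 0% lower. The smallest adjusted p was 0.237, and 81 introns (3.65%) were higher and 181 (8.15%) lower at an unadjusted p under 0.05, beside 3.93% and 6.36% of all introns, while DESeq2 called 0 in each direction as well. This scaling sets the typical intron of a library near 0, so it asks which introns moved further than the others, and the median change was -0.20 for many-intron genes and -0.13 for all introns.

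With the gene counts as offset, which asks for the share of intron counts itself and moves the median of all introns up by 0.63, 189 of the 2221 introns were called higher and 3 lower in *brr2a*-2 (edgeR, same thresholds). These were 8.51% and 0.135% of those tested, beside 10.6% and 0.0806% of all 13649 introns tested, and the median change was 0.44 beside 0.50. The share called was near that background. The number rested on single libraries: without *brr2a*-2 replicate 1, 2 or 3 it was 35, 73 and 113, without a Col library 153 to 219. DESeq2 called 112 higher, all of them among the 189, and 0 lower.

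Calls followed the counts behind an intron's gene. With introns split into 4 groups of about equal size by gene counts, from low to high, 3.59%, 5.41%, 6.98% and 18.2% of the introns tested were called higher. By length, it was 84 of 423 introns (19.9%) under 90 bases, 54 of 571 (9.46%) between 90 and 150 bases and 51 of 1199 (4.25%) over 150 bases. Whether length or gene counts carried this order was not tested.

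The 10 introns with the largest increase, taken by size after their values were seen, lay in 8 genes. AT5G67030.3, AT2G37520.12, AT5G64860.12 and AT5G35170.6 also had the 4 smallest p-values upwards after gene correction. In each of the 10, at least 1 Col library had fewer than 10 counts, and the intron met the filter through the *brr2a*-2 libraries, so its p-value is given as a description and supports nothing further. In *ABA1*, the zeaxanthin epoxidase of abscisic acid synthesis, AT5G67030.3 (intron 13 of the transcript) had 0 counts in all 3 Col libraries, whereas the *brr2a*-2 libraries held 17, 18 and 15. Against the floor of 3 counts over the Col group this was at least 9.80-fold higher per gene count. Intron AT5G67030.13 of the same gene went from 0, 4 and 0 counts to 30, 26 and 17. *ABA1* is also one of the genes whose own counts differed: 113, 137 and 114 CPM in Col and 299, 232 and 208 in *brr2a*-2.

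In AT2G37520, annotated as an acyl-CoA N-acyltransferase with a RING/FYVE/PHD zinc finger, intron AT2G37520.12 was counted once in the Col libraries (1, 0 and 0) and 15, 11 and 10 times in those of *brr2a*-2. The ratio was 37.6 with a 95% counting interval of 6.33 to 1524, which covers counting error only. *DPE1*, a plastid disproportionating enzyme of starch breakdown, went from 8, 4 and 14 to 24, 15 and 26 counts in AT5G64860.12, or from 2.50, 2.92 and 9.09 to 30.2, 26.0 and 31.4 per 1000 gene counts (log2 change 2.68, SE 0.45, edgeR adjusted p = 0.0038). None of these libraries overlapped between the genotypes.

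AT5G35170, annotated as an adenylate kinase family gene, contributed a pair of these introns. AT5G35170.6 went from 12, 6 and 5 counts to 40, 29 and 33 (log2 change 2.37, SE 0.39, edgeR adjusted p = 0.0038). AT5G35170.1 went from 1, 10 and 3 to 41, 23 and 21 counts (2.75, SE 0.51). The others were the first intron of *GLU1*, the last of *KEA1* (a plastid potassium efflux antiporter) and inner introns of *DPE2* and *ALATS* (an alanyl-tRNA synthetase). Their log2 changes were 2.82, 2.64, 2.44 and 2.51, and in each of them every *brr2a*-2 library lay above every Col library. None of these 10 introns passed the test after gene correction on the intron scaling, where their adjusted p lay between 0.265 and 0.360.

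**Figure D2:**
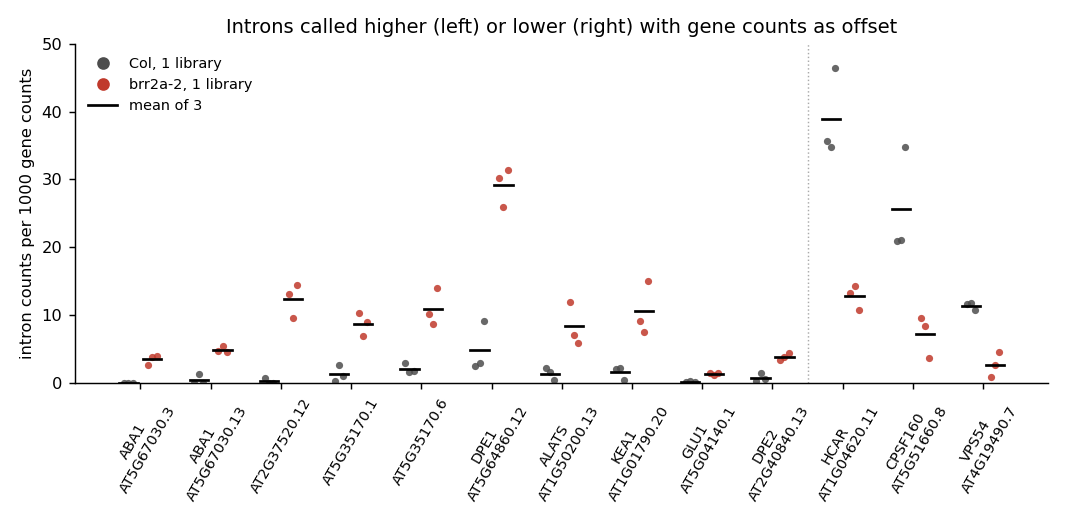
Intron counts per 1000 gene counts (vertical axis) of the 10 introns with the largest increase and the 3 introns called lower in *brr2a*-2, 1 point per library and a bar at the mean of 3. In none of the 13 introns do the genotypes overlap.

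Of the 3 introns called lower, AT1G04620.11 lies in *HCAR*, a reductase of the chlorophyll cycle. It fell from 33, 18 and 24 counts to 5, 5 and 4, or 35.7, 34.7 and 46.4 against 13.2, 14.3 and 10.8 per 1000 gene counts (log2 change -1.58, SE 0.42, edgeR adjusted p = 0.025). AT5G51660.8 in *CPSF160*, a subunit of the complex that cleaves pre-mRNA before polyadenylation, fell from 22, 15 and 17 to 7, 6 and 2 counts (-1.70, SE 0.47, edgeR adjusted p = 0.030). AT4G19490.7 in *VPS54*, a tethering factor of the Golgi, fell from 23, 15 and 13 to 1, 3 and 5 counts (-2.08, SE 0.53, edgeR adjusted p = 0.021). All 3 had at least 13 counts in each Col library and at most 7 in each *brr2a*-2 library, so that they in turn met the filter through Col, and DESeq2 called none of them. An intron of the insulinase gene AT5G56730, AT5G56730.16, was among the smallest p-values too, with 34, 14 and 10 counts against 7, 6 and 7, but missed the threshold (edgeR adjusted p = 0.096).

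At least 1 intron was called higher in 105 genes: 73 genes had 1 such intron, 13 had 2 and 19 had 3 or more. The 7 genes with 5 or more held 51 of the 189 calls, and they were *SEX1* with 17, *GLU1* and AT5G35170 with 7 each, and *ACO1*, *DPE2*, *NADP-ME2* and AT5G08650 with 5 each. Since these introns share the counts of their gene, a lower gene count raises all of them at once.

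*SEX1* encodes the alpha-glucan, water dikinase that phosphorylates starch for its breakdown, and lies at chr1:3580830-3590928 on the minus strand. It has 34 introns, of which 33 had 10 or more counts and 27 were tested. Summed over its introns, the share was 3.06%, 4.79% and 4.53% in Col and 10.3%, 11.0% and 10.1% in *brr2a*-2, a 2.53-fold difference. Intron CPM were 25.9, 33.5 and 31.5 in Col and 48.4, 41.0 and 46.6 in *brr2a*-2. The gene itself was at 848, 701 and 694 CPM in Col and 469, 374 and 463 in *brr2a*-2. Hence both parts of the ratio differed, with more intron counts and fewer gene counts in every *brr2a*-2 library. For the gene alone, edgeR gave a log2 change of -0.78 (SE 0.21, adjusted p = 0.221) and DESeq2 the same change with an adjusted p of 0.0040.

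Along *SEX1* the called introns were spread from intron 3 to intron 34. Intron 17, AT1G10760.18, went from 13, 12 and 11 counts to 22, 33 and 28 (log2 change 2.26, SE 0.39, edgeR adjusted p = 0.0039), and intron 30, AT1G10760.5, had 43, 57 and 48 against 106, 115 and 84 counts (2.01, SE 0.35). Intron 2, AT1G10760.33, did not follow, with 127, 21 and 42 counts against 33, 14 and 34 (-0.01, SE 0.40). In 23 of the 33 introns every *brr2a*-2 library had the higher share, beside 19.5% of the introns in the set and 21.8% of all introns with these minimum counts. The 3 introns singled out here were chosen after their values were seen.

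**Figure D3:**
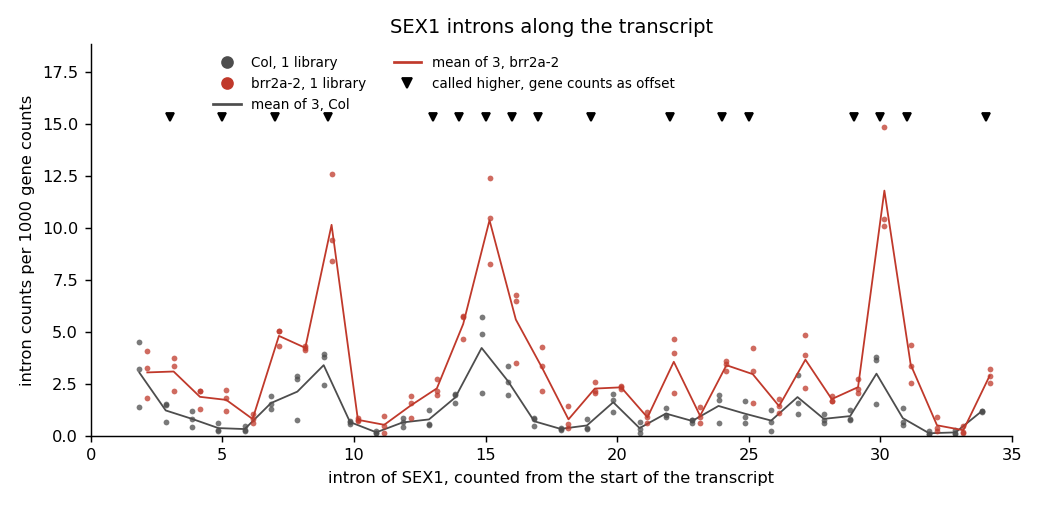
Intron counts per 1000 gene counts (vertical axis) for each intron of *SEX1* with 10 or more counts, numbered from the start of the transcript (horizontal axis), 1 point per library, lines through the means of 3, and a triangle over each of the 17 introns called higher with gene counts as offset. Introns 9, 15 and 30 are the highest in *brr2a*-2 and among the 4 highest in Col.

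The other genes with many calls differed in what moved. *GLU1*, the ferredoxin-dependent glutamate synthase of photorespiratory nitrogen assimilation, went from 9.84, 21.5 and 18.1 to 56.4, 41.1 and 21.8 intron CPM, with gene counts that overlapped. *ACO1*, an aconitase, went from 16.4, 17.6 and 19.6 to 54.4, 38.2 and 33.3 intron CPM, again with overlapping gene counts (449 ± 75.2 and 473 ± 32.2 CPM, SD, n = 3 each). In AT5G35170 it was 15.3, 21.2 and 21.0 against 40.9, 33.8 and 28.3, at a gene level of 154 and 158 CPM. In these 3 genes the intron counts differed, and the gene counts overlapped. In *ABA1* intron CPM were 0.483, 2.74 and 1.79 in Col and 13.8, 11.2 and 8.12 in *brr2a*-2, while its gene counts were 2.03 times as high.

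Gene by gene, the share summed over all introns in the set was higher in every *brr2a*-2 library for 452 of the 873 genes (51.8%) and lower for 5 (0.573%). Over all 11833 genes with such introns it was 37.4% and 0.676%. The upward share was 25.5% for genes with 1 intron, 32.1% for 2 to 4, 40.9% for 5 to 9 and 46.1% for 10 to 14 introns, and sums over more introns also hold more counts, whose part was not tested. The median gene was 1.35-fold higher, with a 10th percentile of 1.03 and a 90th of 1.81. The 5 lower genes, named after their values were seen, were *XI-B* (a myosin), *MEE29* (an RNA helicase), *PAKRP1* and *ATK1* (kinesins) and *SMC4* (a condensin subunit), each with 1 to 5 introns in the set. *SMC4* was at 6.48%, 5.70% and 9.52% in Col and 3.64%, 5.02% and 4.78% in *brr2a*-2.

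Among the genes with the most introns, the midasin-like AT1G67120 with 74 introns was at 4.59%, 4.20% and 5.29% in Col and 3.95%, 5.76% and 5.46% in *brr2a*-2, with overlap. The others did not overlap. AT1G48090, a calcium-dependent lipid-binding family gene with 66 introns, was 1.21-fold higher in *brr2a*-2, AT4G17140 with 65 introns 1.45-fold, *ILA* with 59 introns 1.50-fold and the kinase *TOR* with 55 introns 1.31-fold. Of their introns, 1 of 14 tested in AT4G17140 and 1 of 3 tested in *ILA* were called higher, and none of the 19 tested in the other 3 genes.

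As to the level of the host genes, edgeR called 0 of 871 higher and 0 lower. At an unadjusted p under 0.05 in edgeR, 107 (12.3%) were higher and 52 (5.97%) lower. Among all 19121 genes tested it was 1326 (6.93%) and 1428 (7.47%). DESeq2 called 12 higher and 7 lower, which is 2.18% of the host genes and equal to the background of 2.18% of all genes. Higher were AT1G30820, AT2G48020, *PARP2*, *ABCG30*, *PPDK*, *PRP8B*, *ZIF1*, AT5G18840, *GMI1*, *BGAL4*, *ATH13* and *ABA1*. Lower were *TAG1*, *ROS1*, *ISA3*, *PWD*, *ATK3*, *ACA8* and *DPE1*. *PWD*, *ISA3* and *DPE1* act in starch metabolism, and *ROS1* is a DNA demethylase.

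For groups of genes, 8 lists were drawn up by function, and changes below are those with gene counts as offset. The list of starch, carbon and nitrogen metabolism had the most calls: of its 19 host genes with 378 introns, 140 introns were tested and 49 in 9 genes called higher (35.0%, against 8.51% of all 2221), and 0 lower. Its genes also had more counts, with a median of 16471 against 4169 over all host genes, and of all introns in the top group by gene counts 18.2% were called. Its median change was 1.02, beside 0.44 for all. Without *SEX1* it was 32 of 113 introns (28.3%) and a median of 0.90. The summed share was 3.48%, 3.82% and 4.32% in Col and 7.08%, 6.63% and 6.63% in *brr2a*-2. In 18 of the 19 genes it was higher in every *brr2a*-2 library, beside 51.8% of all host genes. Among them was *TPP2*, a tripeptidyl peptidase, at 1.55-fold. At the same time the level of 9 of the 19 genes was lower at an unadjusted p under 0.05 (edgeR), beside 5.97% of all host genes tested. After gene correction on the intron scaling the median was 0.35, beside -0.20 for all, with 26 introns higher and 3 lower at an unadjusted p under 0.05 and 0 called.

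Within that list the 11 genes of starch synthesis and breakdown, grouped after their values were seen, held 192 introns. Of 78 tested introns, 35 in 6 genes were called higher (44.9%, and 18 of 51 without *SEX1*), with a median change of 1.23. In all 11 genes the share was higher in every *brr2a*-2 library, beside 51.8% of all host genes. The gene counts were lower in every *brr2a*-2 library in 9 of the 11, while intron CPM were higher in every library in 5 and lower in 1, *ISA3*. *DPE1*, for example, went from 96.6, 63.8 and 81.2 gene CPM to 36.7, 27.9 and 46.0, while its intron counts overlapped. In *SBE2.2*, a starch branching enzyme, gene counts went from 125, 116 and 129 to 88.0, 73.3 and 72.0 CPM and intron counts from 2.38, 4.28 and 5.17 to 9.87, 8.59 and 5.73. In most of these genes the higher share thus came with a lower gene level, and in only some of them with more intron reads.

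**Figure D4:**
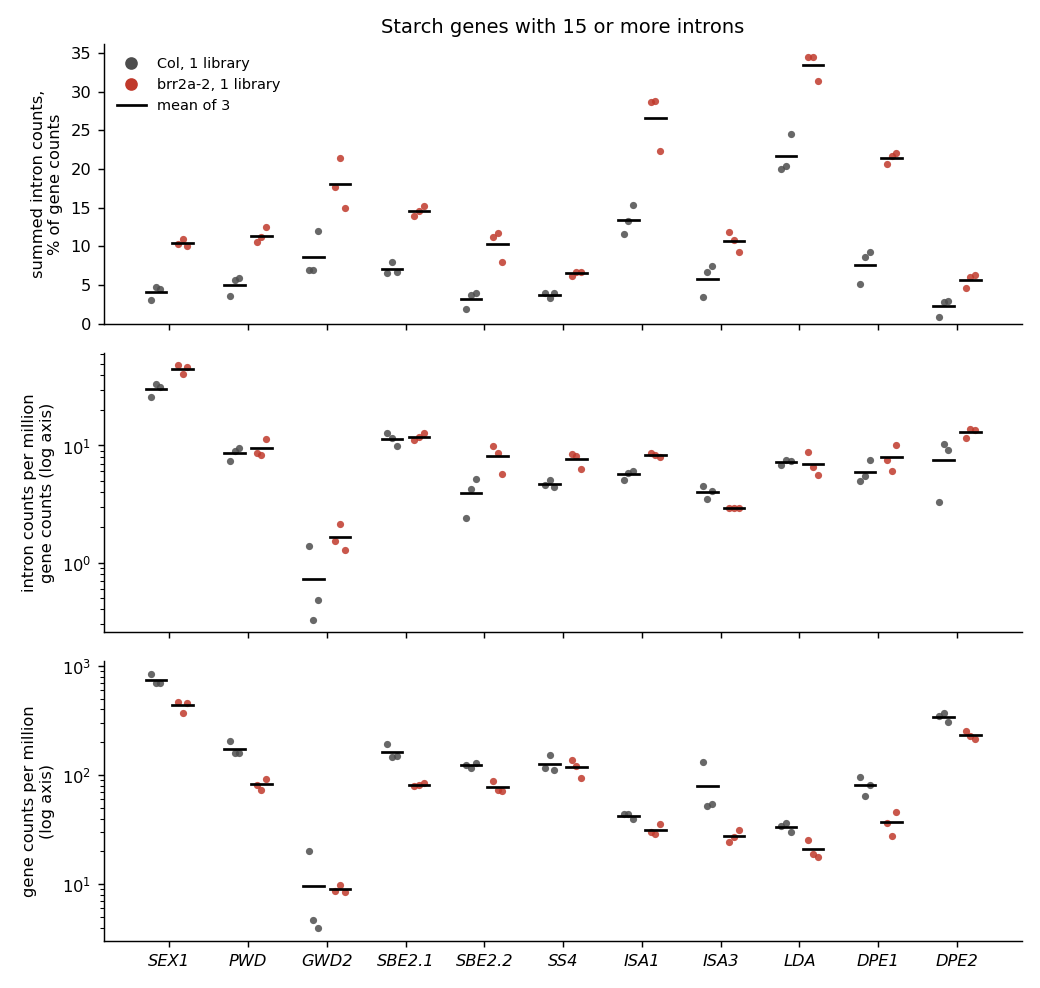
The 11 starch genes with introns in the set: summed intron counts in percent of gene counts, intron CPM and gene CPM, 1 point per library. The share does not overlap in any gene, gene counts are lower in 9 and intron counts higher in 5.

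The remaining lists had medians between 0.19 and 0.46 and few calls. Of the spliceosome list, with 10 host genes and 156 introns, 0 of 18 tested introns were called and the median was 0.46. *PRP8A*, the core protein of the U5 snRNP, was at 1.11% to 1.43% in Col and at 1.65% to 1.92% in *brr2a*-2, and *PRP40A* of the U1 snRNP at 17.6%, 18.9% and 19.4% against 27.5%, 23.1% and 25.4%. Neither overlapped. *BRR2C*, listed as a relative of BRR2a, overlapped (11.1%, 13.3% and 15.8% against 15.5%, 16.9% and 18.8%). *PRP8B* had 1 intron in the set and its gene level was 3.55 ± 0.996 CPM in Col and 16.3 ± 3.92 in *brr2a*-2 (SD, n = 3 each; log2 change 2.19, edgeR adjusted p = 0.154, DESeq2 adjusted p = 1.6e-08). BRR2a and BRR2b themselves were not among the host genes.

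Of flowering time and chromatin genes (15 genes, 229 introns), 0 of 41 tested introns were called (median 0.46), and *SYD*, a chromatin remodelling ATPase, was 1.36-fold higher with overlap, *ELF8*, of the Paf1 complex, and *ATX2*, a histone methyltransferase, 1.25-fold and 1.27-fold without. DNA replication and repair (32 genes, 264 introns) had 0 of 28 called and a median of 0.19. There the cohesin subunit *SMC3* was 1.50-fold higher without overlap, while the cohesin cofactor *PDS5A* and the DNA polymerase *POL2A* were 1.13-fold and 1.15-fold higher and overlapped.

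In the list of myosins, kinesins and cytoskeleton (25 genes, 405 introns), 3 of 71 were called (4.23%, median 0.41), 1 of them in *MOR1*, a microtubule-associated protein that was 1.32-fold higher. The myosins *XI-K* and *XI-2* were 1.18-fold and 1.37-fold higher, and none of these 3 genes overlapped. Cellulose and callose synthases (6 genes, 122 introns) had 3 of 16 called (18.8%, median 0.44), and all 3 lay in *GSL3*. *GSL3* and *GSL12* were 1.35-fold and 1.50-fold higher without overlap, and *GSL8* overlapped (7.06% to 13.1% in Col, 11.5% to 12.4% in *brr2a*-2). Transcription, small RNA and RNA decay (22 genes, 321 introns) had 2 of 50 called higher and 1 lower (median 0.39), the latter the intron of *CPSF160* above. *AGO1*, the main slicer of small RNA pathways, was 1.47-fold higher, *NRPA2* of RNA polymerase I 1.28-fold, both without overlap, and *NRPC2* of RNA polymerase III 0.989-fold with overlap. Endomembrane and vesicle traffic (18 genes, 300 introns) had 2 of 62 called (median 0.27), with *SEC6* of the exocyst 1.41-fold and the dynamin *DRP2A* 1.47-fold higher. Host genes in no list had 130 of 1795 introns called (7.24%).

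By features of the introns, the share was higher in *brr2a*-2 for each class of length. In these classes the counts of a gene were added once for each of its introns, so the values are lower than the sums above. Introns under 90 bases went from 3.70, 3.42 and 3.85 to 5.63, 5.34 and 5.22 per 1000 gene counts, or 0.56 on the log2 scale, those of 90 to 150 bases 0.52, and those over 150 bases from 7.31, 6.22 and 6.97 to 9.22, 8.61 and 8.91, or 0.39. Short introns thus had the lower share and the larger relative change. This share is not corrected for length, and the median length was 82 bases in the shortest class and 254 in the longest. A lower share is thus not a lower level of reads per base. The change differed by 0.18 between the shortest and the longest class without overlap of libraries, and by 0.27 without the 10 introns with the most counts (exact permutation test, p = 0.1 in both, adjusted p = 0.5 over 5 such differences). In genes with 1 to 14 introns the classes stood in the same order, 0.65 and 0.29.

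**Figure D5:**
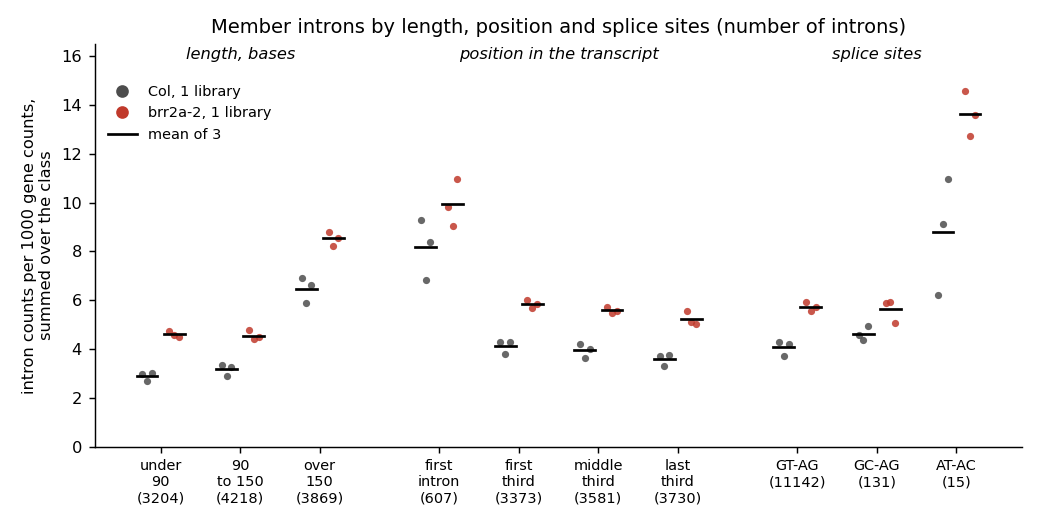
Intron counts per 1000 gene counts (vertical axis) for the introns of many-intron genes by length, position in the transcript and splice sites (horizontal axis), 1 point per library and a line at the mean of 3. The 10 introns with the most counts are left out here, so values differ from those in the text, which include them. GC-AG introns, for example, have means of 4.63 in Col and 5.63 in *brr2a*-2 here. First introns (median length 195 bases) and introns over 150 bases have a high share in both genotypes, which is not corrected for length. The 15 AT-AC introns spread most in Col.

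By position, the 609 first introns had 8.44 ± 1.23 in Col and 10.3 ± 0.825 in *brr2a*-2 per 1000 gene counts (SD, n = 3 each), a change of 0.30, and overlapped without the 10 introns with the most counts. The remaining introns changed by 0.48 at the start of the transcript, 0.44 in its middle and 0.55 at its end, when the transcript is cut into 3 equal parts by intron number. First introns and those of the end part did not differ in their change beyond the spread of the libraries (-0.25, exact permutation test, p = 0.2). Introns in coding regions changed by 0.48, the 200 in 5′ untranslated regions by 0.31 and the 59 in 3′ untranslated regions by -0.04, the latter 2 with overlap.

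Nearly all of the introns, 11151, had GT-AG ends and changed by 0.47. The 132 GC-AG introns changed by 0.34, from 6.03 ± 0.277 to 7.68 ± 1.03 per 1000 gene counts. Their change differed from that of GT-AG introns by -0.13, with overlap of libraries (exact permutation test, p = 0.4). Without the 10 introns with the most counts it differed by -0.22, without overlap (exact permutation test, p = 0.1). The 15 AT-AC introns were at 6.23, 9.14 and 11.0 in Col and 14.6, 12.7 and 13.6 in *brr2a*-2. This change of 0.67 did not differ from that of GT-AG introns beyond the spread (exact permutation test, p = 0.9). Most of their counts lay in AT1G54370.11 of *NHX5* (319) and AT2G40840.5 of *DPE2* (153). The *DPE2* gene level was 347, 373 and 306 CPM in Col and 252, 227 and 214 in *brr2a*-2, and its part in the change was not tested. Of the 11 classes of position, length and ends, 10 had no overlap (exact p = 0.1 each, adjusted 0.11), and the 3 introns with other ends overlapped.

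The AT-AC introns matter because such ends belong to the minor spliceosome, which removes U12-type introns and shares the U5 snRNP, and with it BRR2, with the major one. All 15 began with ATATCCTT, the U12-type start, which stood at the first 8 bases of 0.133% of the introns here and 0.0653% of those in genes with 1 to 14 introns. The GT form, GTATCCTT, began 27 introns, or 0.239% against 0.208%. Only the start of the intron on the transcript strand was searched, and the 2 motifs cannot overlap. Together these 42 introns of 38 genes went from 6.90, 7.07 and 7.87 to 9.19, 8.38 and 9.84 per 1000 gene counts, a change of 0.33. Of these, 6 (14.3%, against 21.8% of all introns) had no overlap in the upward direction and 0 in the downward one. Of the 12 tested, 0 were called (edgeR). For the major type, GTAAGT began 8.38% of the introns here and 9.53% of the others.

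The AT-AC intron AT1G54370.11 of *NHX5*, an endosomal antiporter, had the highest share of its class, with 54.3, 197 and 131 per 1000 gene counts in Col and 239, 225 and 154 in *brr2a*-2. These overlapped, and its change of 0.73 missed the threshold (edgeR adjusted p = 0.213). Its paralogue *NHX6* carried a pair of AT-AC introns, which overlapped too. The 3 AT-AC introns with no overlap, all upward and named after their values were seen, lay in AT1G63640, *SMC3* and *CGL1*. They were 3 of 15, beside 21.8% of all introns with these minimum counts that were higher in every *brr2a*-2 library. In this order they held only 15, 32 and 39 counts over all libraries. The 95% counting intervals of their ratios were 1.82 to 37.3, 1.15 to 6.31 and 0.922 to 3.65. These intervals cover counting error only, and that of *CGL1* includes no change.

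At the upper end, 2 introns had more counts than their gene. One of them, AT2G31900.20 of the myosin *XI-F*, lies opposite AT2G31902, annotated on the other strand, and *XI-F* had only 160 gene counts. The same gene overlaps AT2G31900.1 and AT2G31900.11 of *XI-F*. These 3 introns and AT2G07680.7 of *ABCC13*, with 341 to 581 per 1000 gene counts in Col and 459 to 779 in *brr2a*-2, were among the 5 with the highest share in Col, and the genotypes overlapped in all 4. AT2G31900.1 was at 357, 448 and 552 in Col and 522, 842 and 1056 in *brr2a*-2, and AT2G31900.11 at 762, 310 and 448 against 174, 316 and 611. Whether the counting used strand is not given in the sources used here, so that reads of both cannot be told apart. In all, 77 introns in the set overlap another annotated gene. At the lower end, among introns with 50 or more counts, were AT5G67030.3 with 0 in Col and the *GLU1* introns AT5G04140.1 and AT5G04140.20, both below 0.32 per 1000 gene counts in each Col library. AT5G04140.1 was at 0.126, 0.304 and 0.0781 in Col and 1.43, 1.16 and 1.37 in *brr2a*-2.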

How the data were processed

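Total RNA depleted of ribosomal RNA (Ribo-Zero) was made into ScriptSeq v2 libraries. Per the labels and the methods of the study, the authors trimmed reads with Trimmomatic 0.32, mapped them to the TAIR10 genome with TopHat2 and counted them with HTSeq on its annotation, and deposited raw counts per gene and per intron for 6 libraries. Whether strand was used in counting is not given in the sources used here. The tables held 0 columns of other samples.

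Introns were selected as stated at the start of the report, and members and gene lists were chosen with earlier results of these data known. Positions and sequences come from the TAIR10.1 RefSeq annotation, for 11301 introns of genes with as many introns there as rows in the table (365 through another isoform). Names follow the chromosome: on the minus strand, intron lengths went with counts in this order (correlation 0.41) and not in that of the transcript (-0.02). Chromosome 3 was left out because intron and gene counts under the same name correlated at 0.260, against 0.861 to 0.888 on the others.

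The share is intron over gene counts per library. In sums over whole sets of introns, the counts of a gene entered once. In the classes of length, position, ends, U12-type start and gene part, they entered once for each intron. Single values were compared by two-sided exact permutation tests, which cannot go below p = 0.1 with 3 against 3. Introns were tested on the deposited counts of all chromosomes used, with edgeR 4.0.16 (R 4.3.3; quasi-likelihood F-test, filterByExpr at 10 counts, TMM on the intron table, log2 change of the gene with prior count 2 added to the offset, Benjamini-Hochberg over all introns), called at an adjusted p under 0.05 and a log2 change of at least 1. In the alternative with gene counts as offset, each library's gene count plus 1 was the offset. Gene counts were fitted alike. Alternatives were DESeq2 1.42.0, other filters and scalings, no gene correction, chromosome 3 included, the replicate number as a block and leaving out each library. Counting intervals are exact at 95%.

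Introns were named by rule: those called, or the 8 largest, the 4 smallest p-values in each direction, and the 5 highest and 3 lowest Col shares among introns with 50 or more counts; genes: the 5 with most introns, the 5 with most calls and the 3 with most introns of each list. Names outside the rule are said to be chosen after their values were seen. Scripts were tested on simulated data. The labels call the replicates biological, and p-values measure the spread between them. A single intron that the rule names is not reported here.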

Additional observations from a re-analysis of the deposited data

How the results depend on the processing

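The higher share summed over the introns of many-intron genes kept its direction without overlap in every alternative. How many single introns were called depended on the scaling. After gene correction 0 were called in either direction, against 189 higher and 3 lower with gene counts as offset, 9 higher with the scaling of the gene table (AT1G01790.20, AT1G10760.16, AT1G10760.18, AT1G10760.5, AT2G37520.12, AT5G04140.1, AT5G35170.6, AT5G64860.12 and AT5G67030.3, all among the 189), 5 higher and 1 lower without gene correction (AT5G56870.4, AT5G56870.5, AT5G56870.14, AT5G64940.12 and AT5G67030.3, and AT1G04620.11), and 1 lower, AT1G04620.11, with chromosome 3 included. The 2 intron scalings differ by 0.63 to 0.64 in the median of all introns. With gene counts as offset, alternatives chosen after seeing the data gave 112 higher and 0 lower with DESeq2, 247 higher and 7 lower at 10 or more counts in all, and 35 to 219 higher and 0 to 8 lower when 1 library was left out (0 lower without *brr2a*-2 replicate 1 or 2, 8 without Col replicate 2). DESeq2 called 12 host genes higher and 7 lower where edgeR called 0, and leaving out libraries left both intron and gene calls at 0. The cause of these differences was not tested.

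The difference in change between many-intron genes and genes with 1 to 14 introns, 0.01, turned to -0.056 for the median over introns, -0.050 without the 10 introns with the most counts, -0.051 against genes with 5 to 14 introns and -0.045 against genes with 2 to 14 introns, the last chosen after seeing the data. Leaving out 1 library gave -0.056 to 0.059, with reversed signs of -0.056 without Col replicate 1 and -0.0084 without *brr2a*-2 replicate 2. The gene log2 change of *BRR2C*, 0.06, ranged from -0.02 to 0.23 when 1 library was left out, and was -0.019 without Col replicate 3 and -0.018 without *brr2a*-2 replicate 1. In their deviations from the mean of their genotype, same-numbered libraries correlated at 0.04, 0.25 and 0.39 over genes and -0.04, 0.31 and 0.08 over introns. Differently numbered libraries correlated at -0.46 to 0.19 over genes and -0.26 to 0.13 over introns. Whether the replicate numbers pair the libraries was not tested. With the replicate number as a block, 0 introns and 0 host genes were called in either direction, 190 introns were higher and 4 lower with gene counts as offset (176 shared with the 189), and the summed share changed by 0.47 (exact sign-flip p = 0.25, the smallest possible). The median of 26 counts per intron limits what can be seen of single introns.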
